A study of Mus musculus with 40 samples.

Results

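Day 6 was compared with day 4 of pristane in blood of Ifnar1+/+ mice that had received spermine beforehand. The 12 mice, 6 bled on each day, were chosen by their labels for genotype, treatment and day from the 40 mice of the study. All were 7-week-old females. They received spermine for 3 days and then pristane, a hydrocarbon oil that brings on a lupus-like autoimmune disease in mice. Whole blood was drawn and its poly(A)-bearing RNA was sequenced. Set beside them are Ifnar1+/+ mice given PBS and pristane and bled on day 4 or day 6 (6 each), mice labelled Ifnar1-/- given PBS and pristane and bled on the same days (5 each), and 3 uninduced Ifnar1+/+ mice, for which no pretreatment is named. Whether the deletion in the labelled Ifnar1-/- mice is of all tissues is not said in the labels. No spermine was given without pristane, so the day after pristane cannot be told apart from the days passed since spermine.

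Spermine is a polyamine, a small positively charged molecule made by all animal cells from ornithine through putrescine and spermidine. The study's title ties it to JAK1, a kinase that carries signals of type I interferon and other cytokines from their receptors. Interferon signalling turns on a large set of genes, among them Isg15 and Irf7, and such a signature in blood is a known feature of lupus. Blood mRNA also holds a large red-cell share, because reticulocytes, the youngest circulating red cells, still carry transcripts for hemoglobin and membrane proteins while they clear their organelles. In these bulk samples fewer cells of a type and less RNA per cell cannot be told apart.

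The 12 libraries held 9852948 to 12735233 fragments in genes, of which hemoglobin took 26.5 to 51.2 percent, leaving 4810443 to 9365308 fragments. The hemoglobin share was 39.9 ± 8.45 percent (SD, n = 6) on day 4 and 43.2 ± 6.17 percent (n = 6) on day 6, a difference within the spread of the mice (exact two-sided permutation test, p = 0.461, adjusted over 3 library measures p = 0.461). Mitochondrially encoded transcripts took 2.04 ± 0.379 percent of the other fragments on day 4 and 1.61 ± 0.260 percent on day 6 (exact p = 0.0476, adjusted p = 0.143). The smallest p that 6 against 6 mice can give is 0.00216.

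The libraries of the mice numbered 2 stood apart on both days. On the first principal component of the 12 libraries, which held 44.7 percent of their variance, they lay at 33.8 (day 4) and 70.8 (day 6), and the other 10 lay between -25.5 and 5.42. Their short transcripts were high relative to long ones. The length index, the median log2 deviation of 823 protein-coding genes under 1500 bases minus that of 3761 genes over 5000 bases, was 0.66 and 1.25 in them. It ranged from -0.52 to -0.16 in the other day 4 mice and from -0.20 to 0.19 in the other day 6 mice. Over all 12 mice the short genes had a median day 6 minus day 4 difference of 0.27 and the long genes one of -0.07 (log2). For the 65 genes followed through the alternatives, calls that were lost without both mice numbered 2 are marked below.

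**Figure D1:**
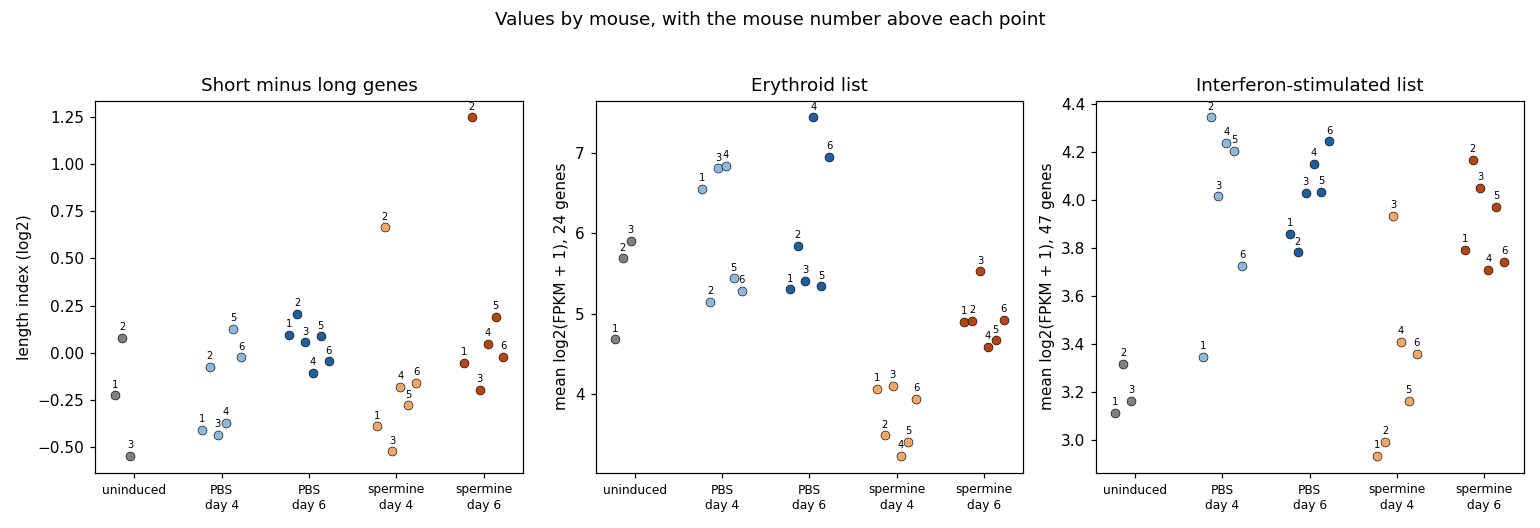
Length index (log2, left) and mean log2(FPKM + 1) of 24 erythroid genes (middle) and 47 interferon-stimulated genes (right) in each Ifnar1+/+ mouse, with the mouse's number above its point. The spermine mice numbered 2 are the highest of all on the left, at 0.66 and 1.25, and the erythroid means of the day 6 spermine mice (4.59 to 5.53) lie above those of the day 4 mice (3.24 to 4.11).

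From day 4 to day 6 after spermine, blood gained transcripts of red-cell genes, of a few interferon-stimulated genes, and of Apol11b and Ucp2. Of 11829 genes tested, 70 rose and 3 fell (limma on log2(FPKM + 1), Benjamini-Hochberg adjusted p under 0.05 over all genes, 0.617 percent called, 0.592 percent higher and 0.0254 percent lower). At an unadjusted p under 0.05 there were 1241. The log2 changes of the 70 ran from 0.91 to 3.34 with a median of 1.55, whereas the median over all tested genes was 0.02. For 63 of the 73 the 6 values of one day did not overlap the 6 of the other. Over all genes, 2.36 percent did so with day 6 higher and 0.127 percent with day 6 lower.

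The count of called genes depended on single mice. It was 21 without day 6 mouse 2, 25 without day 6 mouse 3, 22 without day 4 mouse 5, 26 without day 4 mouse 4 and 196 without day 4 mouse 2. Without both mice numbered 2 it was 34, of which 26 were among the 73, and with the length index as a covariate it was 81, of which 55 were. With libraries scaled to a fixed non-hemoglobin total in place of the deposited size factors, which moved the median of all genes to -0.16, 182 genes rose and 76 fell. Just inside the threshold were the red-cell membrane scaffold gene Mpp1 (adjusted p = 0.0494) and C1qb (0.0495), and a little outside it was the chaperone regulator gene Bag1 (0.0584).

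Red-cell genes formed the largest group among the called genes that a list held. Of 24 erythroid genes tested, 6 rose and none fell, beside 0.592 and 0.0254 percent of all genes. All 24 had a positive log2 change, beside 53.2 percent of all genes. Their median change was 1.203, and 17 of the 24 had day 6 mice wholly above day 4 mice, beside 2.36 percent of all genes. Without both mice numbered 2 the median was 1.17 and 3 were called, Kel and Trim10 among them. With the length index as a covariate 10 rose, with a median of 1.46. With fixed totals without and with hemoglobin 14 and 12 rose, and 15 without 7 libraries of low mitochondrial share. Of all genes, 182, 165 and 221 rose in the same settings.

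Trim10, which encodes a RING-finger protein of terminal erythroid cells, had 9.58, 20.9 and 34.6 FPKM (lowest, median and highest mouse) on day 4 and 64.1, 96.8 and 188 FPKM on day 6. No mouse of one day reached the other day's range. The mean level was 4.93-fold higher on day 6 and the log2 change was 2.29 ± 0.45 (SE, adjusted p = 0.00810). It was called in all 24 alternatives, those that left out a mouse included.

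The anion exchanger gene Slc4a1, which encodes the band 3 protein of the red-cell membrane, ran from 14.95 to 47.35 FPKM (median 31.3) on day 4 and from 82.6 to 225 FPKM (median 120) on day 6. The groups did not overlap, and the log2 change was 2.09 ± 0.47 (adjusted p = 0.0233, but 0.0994 without both mice numbered 2). Epb42, encoding a membrane-skeleton protein bound to band 3, ran from 0.917 to 4.24 FPKM (median 2.65) and then from 9.85 to 25.0 FPKM (median 11.95). It too had separate groups and rose by 2.10 ± 0.46 (adjusted p = 0.0212, and 0.0810 without those mice). Kel, the gene of the Kell blood-group protein, was low at 0.402 to 1.69 FPKM (median 0.720) on day 4 and 3.98 to 12.1 FPKM (median 7.16) on day 6, with a log2 change of 2.10 ± 0.39 (adjusted p = 0.00484). An annotated gene overlaps Kel on the same strand and could share its reads.

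The promoters of Trim10 and Epb42 are shown because each holds a match to AGATAA, the letters bound by GATA factors, which drive red-cell genes. They cover 250 bases before to 50 bases after the RefSeq gene start (GRCm38.p6), written 5′ to 3′ on the gene's strand, at chr17:36869324-36869623 (+ strand) and chr2:121036828-121037127 (- strand), with the match in capitals. Both strands were searched, and in both promoters the match reads TTATCT because it lies on the opposite strand.
Trim10: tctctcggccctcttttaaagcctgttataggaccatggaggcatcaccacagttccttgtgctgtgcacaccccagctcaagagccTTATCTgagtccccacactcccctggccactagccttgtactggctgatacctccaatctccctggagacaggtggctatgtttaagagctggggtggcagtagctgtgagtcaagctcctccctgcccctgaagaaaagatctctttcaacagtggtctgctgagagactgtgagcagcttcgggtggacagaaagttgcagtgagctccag
Epb42: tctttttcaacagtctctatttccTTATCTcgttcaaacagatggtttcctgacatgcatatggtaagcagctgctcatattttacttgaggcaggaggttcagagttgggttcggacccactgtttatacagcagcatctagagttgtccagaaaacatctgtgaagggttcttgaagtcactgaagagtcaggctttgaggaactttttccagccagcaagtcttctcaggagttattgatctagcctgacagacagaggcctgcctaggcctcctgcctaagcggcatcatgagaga
Of the 70 genes that rose, 53 have a promoter in the RefSeq table. Of these 53, 11 (20.8 percent) hold such a match in at least 1 promoter, beside 11.2 percent of 32851 promoters in the table. Besides Trim10 and Epb42, the 11 are Kel, Mpp1, Irf7, Atg4a, Fis1, Ppp1r15a, Psmf1, Cbr1 and Mettl27. The match was thus not confined to red-cell genes. A gene with several promoters has several chances of a match, and a match describes the letters, not binding.

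Other members of the erythroid list were not called. Gata1, the master transcription factor of the lineage, had a log2 change of 0.64 ± 0.24 (adjusted p = 0.293, medians 3.79 and 5.74 FPKM). Klf1, the activator of adult globin genes, was near 0.3 FPKM on both days (medians 0.2045 and 0.337) with a change of 0.10 ± 0.24 (adjusted p = 0.896). Tfrc, the transferrin receptor gene that immature red cells use to take up iron, had medians of 2.53 and 2.63 FPKM and a change of 0.08 ± 0.21 (adjusted p = 0.903). With fixed totals without and with hemoglobin the Tfrc change was -0.11 and -0.17, where the median of all genes was -0.16 and -0.22. Bpgm, which sets the oxygen affinity of hemoglobin in mature red cells, went from 504, 941 and 1446 FPKM to 1865, 2048 and 3558 FPKM, without overlap, but missed the threshold (1.32 ± 0.34, adjusted p = 0.0584).

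Among 7 hemoglobin genes tested, 2 rose and 6 had a positive change (median 0.85), beside 0.592 and 53.2 percent of all genes. Hbq1b, a theta-globin gene, went from 18.5 to 36.8 FPKM (median 34.3) on day 4 to 69.1 to 136 FPKM (median 87.2) on day 6, without overlap, and rose by 1.62 ± 0.34 (adjusted p = 0.0174, and 0.0588 without both mice numbered 2). Its copy Hbq1a could share its reads, so the value is uncertain. The embryonic globin gene Hbb-y was at 0 in 4 of the 6 day 4 mice and reached 1.03 FPKM in the highest, and it ran from 0.762 to 8.43 FPKM on day 6, so the groups overlapped (1.65 ± 0.35, adjusted p = 0.0174, and 0.101 without those mice).

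The adult beta-globin genes, the bulk of hemoglobin mRNA, were not called. Hbb-bs had medians of 68010 and 94550 FPKM with overlapping groups (0.66 ± 0.32, adjusted p = 0.460). Hbb-bt ran from 10681 to 29320 FPKM and then from 29688 to 75421 FPKM, without overlap (1.12 ± 0.32, adjusted p = 0.0999). Alas2, the erythroid enzyme that starts heme synthesis, had medians of 4032 and 6914 FPKM (0.86 ± 0.35, adjusted p = 0.366). Of 10 heme synthesis genes none was called and all 10 had a positive change (median 0.25), beside 53.2 percent of all genes. With fixed totals without and with hemoglobin 3 and 1 rose, and 3 without 7 libraries of low mitochondrial share. Of all genes, 182, 165 and 221 rose in the same settings.

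Reticulocytes remove mitochondria by autophagy as they mature. Of 14 genes of reticulocyte maturation none was called, and the median was 1.09. A positive change was seen in 13, and 7 did not overlap, with day 6 higher, beside 53.2 and 2.36 percent of all genes. With fixed totals without and with hemoglobin 5 and 6 rose, and 6 without 7 libraries of low mitochondrial share. Of all genes, 182, 165 and 221 rose in the same settings. Bnip3l, whose product NIX marks mitochondria for removal, had medians of 207 and 587 FPKM and a ratio of 2.74 between the means of day 6 and day 4 (adjusted p = 0.0748).

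The 70 also held Map1lc3b, Atg4a and Wipi1, which were picked from the called genes, with no list of autophagy genes counted. Map1lc3b, encoding a protein of the autophagosome membrane, ran from 15.5 to 25.3 FPKM (median 23.7) on day 4 and from 40.6 to 73.7 FPKM (median 46.8) on day 6, without overlap, and rose by 1.22 ± 0.24 (adjusted p = 0.00781). Atg4a, which processes proteins of that kind, went from a median of 4.24 to 15.6 FPKM (1.86 ± 0.42, adjusted p = 0.0234, and 0.0810 without both mice numbered 2). Wipi1, which helps form autophagosomes, went from a median of 1.07 to 3.79 FPKM (1.27 ± 0.31, adjusted p = 0.0465, and 0.104 without them). A gene overlapping Map1lc3b on the same strand could share its reads.

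Car2, Gpx1, Prdx2, Blvrb and Rnf10 are 5 more of the 70, picked from the called genes, with no list of red-cell enzymes counted. Car2, carbonic anhydrase 2, went from 20.4, 48.9 and 64.7 FPKM to 125, 177 and 360 FPKM (2.11 ± 0.48, adjusted p = 0.0234). The peroxide-removing enzyme genes Gpx1 and Prdx2 rose by 1.67 ± 0.37 (adjusted p = 0.0213) and 1.86 ± 0.43 (adjusted p = 0.0245), with Gpx1 medians of 978 and 2431 FPKM and Prdx2 medians of 49.5 and 141 FPKM. Blvrb, biliverdin reductase B, rose by 1.88 ± 0.42 (adjusted p = 0.0212, medians 19.7 and 60.5 FPKM), and Rnf10, a ubiquitin ligase gene, by 1.64 ± 0.38 (adjusted p = 0.0249, medians 93.0 and 279 FPKM). In none of these 5 genes did the mice of the days overlap, and without both mice numbered 2 none of them was called, with adjusted p from 0.0810 to 0.101 and log2 changes from 1.52 to 2.11.

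**Figure D2:**
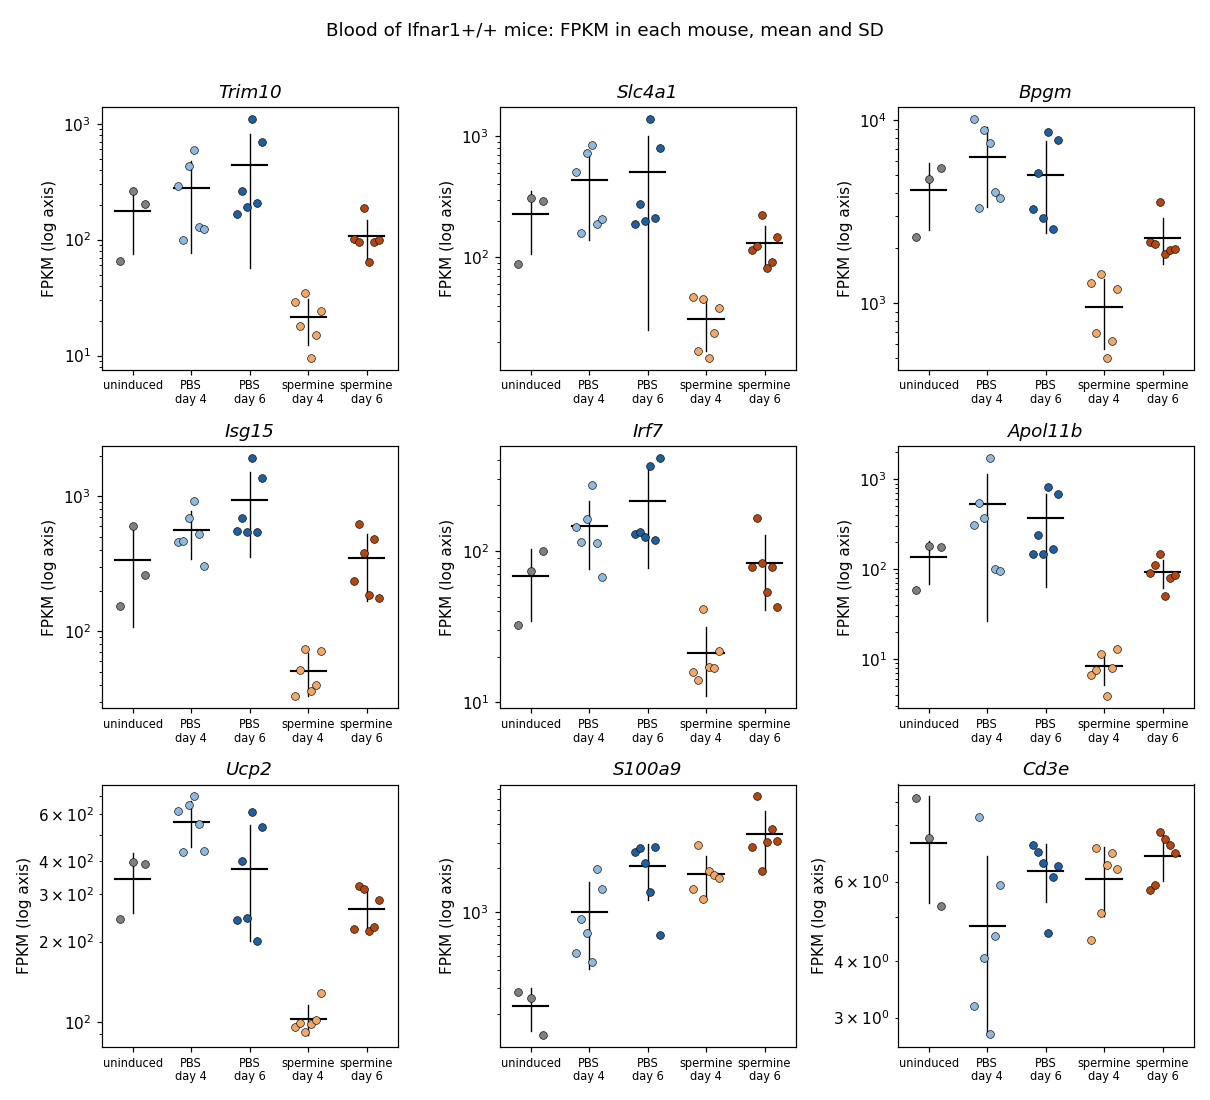
FPKM (log axis) of 9 genes in every Ifnar1+/+ mouse that was uninduced, given PBS or given spermine; horizontal bars are means and vertical bars SDs. Trim10, Slc4a1, Bpgm, Isg15, Irf7, Apol11b and Ucp2 show day 6 spermine mice wholly above day 4 spermine mice, and S100a9 and Cd3e show groups that overlap.

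The 70 genes were chosen for day 4 levels below those of day 6, so their place on day 4 beside other groups is a description from which nothing is read. Of the 70 genes, 67 had a day 4 spermine mean below the uninduced mean and 68 one below the day 4 PBS mean (50.7 and 47.9 percent of all genes). On day 6, 54 of the 70 were still below the uninduced mean and 66 below the day 6 PBS mean (48.8 and 46.1 percent of all genes). Kel, for example, averaged 12.2 ± 7.67 FPKM (SD, n = 3) in uninduced mice, 20.2 ± 12.6 in day 4 PBS mice and 26.8 ± 22.9 in day 6 PBS mice (n = 6 each), beside 0.938 ± 0.538 and 7.38 ± 2.70 FPKM on days 4 and 6 after spermine. Not every group was above day 4 spermine mice: in mice labelled Ifnar1-/- on day 4 after PBS, Isg15 averaged 12.1 FPKM and Irf7 4.03 FPKM (n = 5), beside 51.1 and 21.2 FPKM on day 4 after spermine. These levels were not tested here.

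Interferon-stimulated genes made up the next group. Of 47 tested, 3 rose (Isg15, Irf7 and Oas1g) and none fell, beside 0.592 and 0.0254 percent of all genes. A positive change was seen in 43, and 7 did not overlap, with day 6 higher, beside 53.2 and 2.36 percent of all genes. The median of the 47 was 0.48. Without both mice numbered 2 the median was 0.38 and Isg15 alone remained called. The mean of the 47 genes on the log2(FPKM + 1) scale ran from 2.94 to 3.94 (median 3.26) on day 4 and from 3.71 to 4.17 (median 3.88) on day 6, so that the highest day 4 mouse, mouse 3, lay within the day 6 range. Uninduced mice ran from 3.11 to 3.32, day 4 PBS mice from 3.35 to 4.34 and day 6 PBS mice from 3.78 to 4.24.

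Isg15, which encodes a ubiquitin-like protein attached to other proteins, had 33.0, 45.9 and 73.5 FPKM on day 4 and 176, 309 and 622 FPKM on day 6. The groups were far apart, the mean level was 6.80-fold higher and the log2 change was 2.65 ± 0.41 (adjusted p = 0.000952). It was called in all 24 alternatives, with changes from 2.32 to 2.81. The day 6 mean of 347 ± 181 FPKM (n = 6) stood beside 338 ± 231 FPKM in uninduced mice (n = 3).

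Irf7, the transcription factor that amplifies interferon production, ran from 13.97 to 41.3 FPKM (median 16.9) on day 4 and from 42.9 to 166 FPKM (median 78.8) on day 6. The lowest day 6 mouse was just above the highest day 4 mouse, and the log2 change was 1.90 ± 0.39 (adjusted p = 0.0111, and 0.0877 without both mice numbered 2). Oas1g, a sensor gene of the 2'-5' oligoadenylate synthetase family, ran from 0.336 to 2.04 FPKM and then from 2.11 to 8.83 FPKM (1.21 ± 0.27, adjusted p = 0.0212, and 0.127 without those mice). It has near-identical paralogs that could share its reads, so its value is uncertain.

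Other well-known interferon targets missed the threshold. Rsad2, encoding the antiviral protein viperin, had medians of 84.7 and 225 FPKM (1.45 ± 0.46, adjusted p = 0.169), and Ifit1, which binds viral RNA, had medians of 7.52 and 21.7 FPKM (1.37 ± 0.43, adjusted p = 0.162). Ifi27l2a did not overlap between the days (medians 46.4 and 100 FPKM, 1.61 ± 0.49, adjusted p = 0.135). None of 16 class I antigen presentation genes was called, with a median of 0.35 and 15 positive, beside 53.2 percent of all genes. None of 19 JAK-STAT and SOCS genes was called, with a median of 0.06.

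The promoters of Isg15, Oas1g and Apol11b are shown because each gene rose and each promoter holds GAAA followed after any 2 bases by GAAA, the core of the interferon-stimulated response element, on either strand. They lie at chr4:156200769-156201068 (- strand), chr5:120887564-120887863 (- strand) and chr15:77643237-77643536 (- strand) of GRCm38.p6, taken from RefSeq with the same window and orientation as above. Capitals mark the matches, which overlap each other in Isg15 (3 matches) and Oas1g (2 matches). In Apol11b the single match is on the opposite strand.
Isg15: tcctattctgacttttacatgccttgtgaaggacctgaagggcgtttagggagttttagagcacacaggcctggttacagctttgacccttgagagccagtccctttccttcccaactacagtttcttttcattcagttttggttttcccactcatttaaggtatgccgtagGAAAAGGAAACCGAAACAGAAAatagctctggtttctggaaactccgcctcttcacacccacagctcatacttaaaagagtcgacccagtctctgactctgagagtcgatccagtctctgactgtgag
Oas1g: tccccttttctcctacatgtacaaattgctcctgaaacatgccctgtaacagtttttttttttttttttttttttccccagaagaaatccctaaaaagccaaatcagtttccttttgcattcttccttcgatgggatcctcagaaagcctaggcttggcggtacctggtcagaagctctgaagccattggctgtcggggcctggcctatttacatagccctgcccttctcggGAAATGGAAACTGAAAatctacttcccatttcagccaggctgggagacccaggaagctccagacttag
Apol11b: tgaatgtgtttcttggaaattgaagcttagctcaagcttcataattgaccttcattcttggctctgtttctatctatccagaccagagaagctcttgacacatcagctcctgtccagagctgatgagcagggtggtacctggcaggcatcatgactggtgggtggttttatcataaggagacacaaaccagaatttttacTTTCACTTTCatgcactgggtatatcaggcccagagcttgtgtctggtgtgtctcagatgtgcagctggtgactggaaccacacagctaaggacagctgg
A match occurred in 5 of the 53 genes with a promoter (9.43 percent), beside 3.44 percent of the 32851 promoters. Besides the 3 genes shown, they were the globin gene Hbb-y and Ppp1r15a. The promoter of Irf7 held no such match. No match in this window says nothing of sites elsewhere.

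Apol11b, a mouse member of the apolipoprotein L family, had the highest log2 change of all called genes. It had 3.87, 7.83 and 13.1 FPKM on day 4 and 50.7, 88.3 and 147 FPKM on day 6, with every day 6 mouse above every day 4 mouse. The mean was 11.1-fold higher and the log2 change was 3.34 ± 0.58 (adjusted p = 0.00245), and it was called in all 24 alternatives (3.06 to 3.53). The day 6 mean of 94.0 ± 32.3 FPKM (n = 6) stood beside 139 ± 69.7 in uninduced mice (n = 3) and 372 ± 308 in day 6 PBS mice (n = 6).

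Ucp2, which encodes a proton or metabolite carrier of the inner mitochondrial membrane, ran from 91.8 to 129 FPKM (median 98.9) on day 4 and from 219 to 324 FPKM (median 257) on day 6. The groups were narrow and wholly apart, and the log2 change was 1.35 ± 0.25 (adjusted p = 0.00407). In PBS-treated Ifnar1+/+ mice it went from a mean of 561 to 372 FPKM (-0.70 ± 0.25, adjusted p = 0.162). The difference between these changes was 2.04 ± 0.35 (limma interaction, adjusted p = 0.00612), positive in all alternatives and no longer called with the replicate number as a block.

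Only 1 other gene passed that test of difference from PBS, out of 11829 (0.0169 percent called, 819 at an unadjusted p under 0.05). It was 9530026F06Rik, a long intergenic noncoding RNA gene on chromosome 1 that was named after its values were seen. It ran from 0.391 to 1.52 FPKM on day 4 and from 1.87 to 8.28 FPKM on day 6 after spermine (1.09 ± 0.25, adjusted p = 0.0231, but 0.106 without both mice numbered 2 and 0.0665 with the length index), and had a change of -0.98 ± 0.25 after PBS (adjusted p = 0.0521). The difference of 2.08 ± 0.35 (adjusted p = 0.00612) was not called without 7 libraries of low mitochondrial share, nor with the block.

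Mthfd2, an enzyme of mitochondrial folate metabolism, is given as a gene near that threshold. It had medians of 2.45 and 5.91 FPKM after spermine (1.07 ± 0.40, adjusted p = 0.288) and a change of -1.39 ± 0.40 after PBS (adjusted p = 0.0845). The difference was 2.47 (unadjusted p = 9.9e-05, adjusted p = 0.218).

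Ndufa1, a subunit of complex I, ran from 11.9 to 29.9 FPKM (median 16.1) and then from 29.4 to 85.9 FPKM (median 38.2), and Cox6a1, a subunit of cytochrome oxidase, from 40.3 to 117 FPKM (median 45.5) and then from 103 to 301 FPKM (median 124). In both the day 4 mouse 2 lay within the day 6 range, and the log2 changes were 1.34 ± 0.27 (adjusted p = 0.0112) and 1.31 ± 0.31 (adjusted p = 0.0291). Both are short genes, and with the length index as a covariate Ndufa1 changed by 0.95 (adjusted p = 0.0191) and Cox6a1 was not called (1.04, adjusted p = 0.105).

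Those were the 2 that rose of 22 genes on the nuclear oxidative phosphorylation list, beside 0.592 percent of all genes. The list median of 0.27 became 0.01 with the length index. None of 34 ribosomal protein genes was called, and their median of 0.30 became -0.06 in the same way. None of 13 mitochondrially encoded genes was called (median -0.20). Outside these lists, Cox6b2, a cytochrome oxidase subunit known best from testis, rose from a median of 3.92 to 17.1 FPKM (2.10 ± 0.33, adjusted p = 0.000952, called in all alternatives), and Fis1, a gene of mitochondrial fission, from 46.8 to 99.9 FPKM (1.35 ± 0.31, adjusted p = 0.0260, but 0.0810 without both mice numbered 2 and 0.0809 with the length index). Of 3 further genes of the respiratory chain or ATP synthase outside the list, the cytochrome oxidase subunit gene Cox6c rose by 1.31 ± 0.24 (adjusted p = 0.00514, medians 5.84 and 15.3 FPKM) and was called in all alternatives. Cox7b, another subunit, rose by 1.14 ± 0.27 (adjusted p = 0.0291, but 0.0926 with the length index). Atp5l, an ATP synthase subunit, rose by 1.11 ± 0.27 (adjusted p = 0.0397, but 0.104 without both mice numbered 2 and 0.0926 with the length index). Genes on the opposite strand overlap Cox6c and Atp5l and could share their reads if strand was not used in counting. The same holds for other genes named in this report, Alas2, Rnf10 and Prdx2 among them.

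Other genes at the top of the called set had separate days in every mouse. Diaph3, a formin that builds actin filaments, rose by 2.34 ± 0.38 (adjusted p = 0.000952, medians 2.06 and 13.8 FPKM). Annotated genes overlap Diaph3 on the same strand and could share its reads. Gstm5, a glutathione transferase gene, rose by 2.18 ± 0.30 (adjusted p = 0.000274, medians 1.57 and 11.4 FPKM), and Ctsf, a lysosomal protease gene, by 2.30 ± 0.39 (adjusted p = 0.00192, medians 0.625 and 7.00 FPKM). All 3 were called in all 24 alternatives. Of 12 genes of the integrated stress response, 1 rose (median 0.51), beside 0.592 percent of all genes. It was Ppp1r15a, which ends that response by restoring protein synthesis, with medians of 3.54 and 11.3 FPKM (1.31 ± 0.29, adjusted p = 0.0212, and 0.0994 without both mice numbered 2).

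Only 3 genes fell in the fit of all mice. Pdcd4, an inhibitor of translation initiation, went from 24.2, 28.8 and 36.6 FPKM to 18.04, 21.0 and 23.6 FPKM, without overlap (-0.45 ± 0.10, adjusted p = 0.0234, and 0.101 without both mice numbered 2). Fcrl5, an Fc receptor-like gene of B cells, went from a median of 2.99 to 1.37 FPKM with overlapping groups (-0.68 ± 0.16, adjusted p = 0.0319, but 0.0533 without both mice numbered 2), and was not called in 3 of 11 alternatives and without each of 8 of the 12 mice. The third was Traj41, a joining segment of the T cell receptor alpha locus which was at 0 in all 6 day 6 mice and at 2.03 FPKM at most on day 4, and is named after its values were seen. It is 55 bases long, and its call rests on 6 fragments over the day 4 mice, of which 2 had none. All other libraries together held 1 fragment, so it passed the filter through the group where it was high, and nothing is read from its call. Irf4, a transcription factor of antibody-secreting cells, had medians of 6.13 and 4.60 FPKM and was not called (-0.46 ± 0.13, adjusted p = 0.108). It had the lowest change of 9 antibody-secreting cell genes tested, which had a median of 0.16. Of these 9, 6 were positive, beside 53.2 percent of all genes.

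Granulocyte and monocyte genes did not pass the test. None of 21 mature neutrophil genes was called, with a median of 0.30 and 19 positive, beside 53.2 percent of all genes. Without 7 libraries of low mitochondrial share 2 of the 21 rose, beside 221 of all 11829 genes. None of 8 genes of neutrophil formation was called, all positive, with a median of 0.45. S100a9, a partner in the calprotectin complex of neutrophils, had medians of 1762 and 3047 FPKM with overlap (0.87 ± 0.32, adjusted p = 0.288), and S100a8, the other partner, medians of 899 and 1689 FPKM (0.87 ± 0.33, adjusted p = 0.307). The granule gene Lcn2 did not overlap (medians 46.6 and 74.8 FPKM, 0.72 ± 0.25, adjusted p = 0.233), nor did Camp, an antimicrobial peptide gene of forming neutrophils, at medians of 0.611 and 1.86 FPKM (1.01 ± 0.28, adjusted p = 0.0887). The surface marker Ly6g had medians of 28.2 and 30.4 FPKM (0.26 ± 0.37, adjusted p = 0.807).

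None of the 21 mature neutrophil genes had a day 4 spermine mean below the uninduced or the day 4 PBS mean, beside 50.7 and 47.9 percent of all genes. The mean of the 21 on the log2(FPKM + 1) scale ran from 5.34 to 5.59 on day 4 after spermine. In mice labelled Ifnar1-/- on day 4 after PBS it was higher, from 5.85 to 6.19. These levels were not tested. After PBS in Ifnar1+/+ mice, 7 of the 21 rose from day 4 to day 6, with a median of 0.87, beside 0.304 percent of all genes. Mcemp1, a myeloid surface gene outside the list, was the only gene that rose in both groups (0.91 ± 0.23 after spermine, adjusted p = 0.0481, and 1.08 ± 0.23 after PBS, adjusted p = 0.0194), and without both mice numbered 2 its spermine call was lost (0.77, adjusted p = 0.121).

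Of 13 Ly6C-high monocyte genes none was called (median 0.25). Ly6c2, the antigen that names these monocytes, had medians of 24.5 and 40.6 FPKM (0.98 ± 0.29, adjusted p = 0.121), and their chemokine receptor gene Ccr2 17.1 and 24.05 FPKM (0.45 ± 0.20, adjusted p = 0.432). In the Fc receptor and complement list, 1 of 13 rose (median 0.32), beside 0.592 percent of all genes. It was C1qb, a subunit of complement C1q, at most 0.359 FPKM on day 4 and 0.368 to 3.86 FPKM on day 6 (0.95 ± 0.24, adjusted p = 0.0495, and 0.152 without both mice numbered 2).

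Lymphocyte and platelet lists held no called gene. Their medians were -0.07 for 18 B cell genes, 0.10 for 20 T cell genes, -0.04 for 16 natural killer and cytotoxic genes and 0.10 for 15 platelet genes. Cd3e, a chain of the T cell receptor complex, had medians of 6.46 and 7.08 FPKM (0.15 ± 0.15, adjusted p = 0.712), and the natural killer receptor gene Ncr1 3.78 and 2.70 FPKM (-0.42 ± 0.24, adjusted p = 0.543). Pf4, a platelet chemokine, had medians of 291 and 361 FPKM (0.39 ± 0.25, adjusted p = 0.573). The sign for Cd3e was negative with either fixed total, where the median of all genes was negative too (-0.16 without and -0.22 with hemoglobin).

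The remaining cell lists also had no call. Ear1, an eosinophil ribonuclease gene, had medians of 4.00 and 3.76 FPKM (-0.52 ± 0.31, adjusted p = 0.548) in a list of 8 genes with a median of 0.08. Bst2, the gene of the tethering protein tetherin and a marker of plasmacytoid dendritic cells, had medians of 9.67 and 16.2 FPKM (1.06 ± 0.32, adjusted p = 0.121). It had the highest change in a list of 5 genes with a median of 0.11. Of these 5, 3 were positive, beside 53.2 percent of all genes. Hk3, a hexokinase of myeloid cells, had medians of 9.74 and 12.7 FPKM (0.31 ± 0.16, adjusted p = 0.478).

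None of the 17 polyamine genes tested was called (median 0.21). With fixed totals without and with hemoglobin 1 and 2 rose, and 2 without 7 libraries of low mitochondrial share. Of all genes, 182, 165 and 221 rose in the same settings. Odc1, the enzyme that starts polyamine synthesis, had medians of 71.4 and 71.4 FPKM (-0.09 ± 0.24, adjusted p = 0.904). Smox, which oxidizes spermine to spermidine, went from 28.2, 34.02 and 53.4 FPKM to 58.7, 77.5 and 120 FPKM without overlap, and was not called (1.15 ± 0.34, adjusted p = 0.121). Jak1 had medians of 39.8 and 37.6 FPKM (-0.12 ± 0.12, adjusted p = 0.699), and Ifnar1 8.74 and 8.285 FPKM (-0.10 ± 0.10, adjusted p = 0.712).

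**Figure D3:**
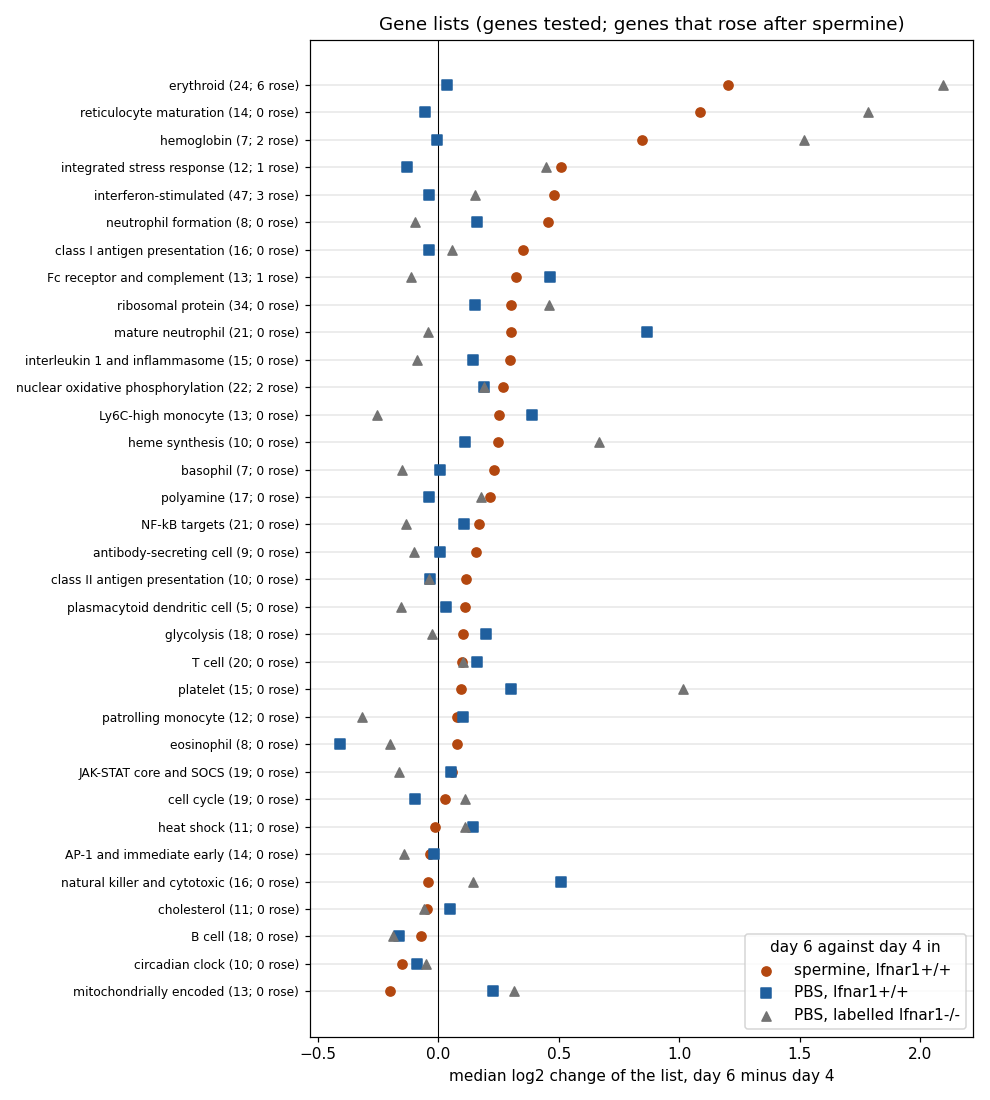
Median log2 change from day 4 to day 6 of 34 gene lists after spermine (circles), after PBS in Ifnar1+/+ mice (squares) and after PBS in mice labelled Ifnar1-/- (triangles); each list's name is followed by the genes tested and those that rose after spermine. The erythroid, reticulocyte maturation and hemoglobin lists are highest after spermine (1.203, 1.09 and 0.85) and near 0 in PBS-treated Ifnar1+/+ mice.

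The same days in PBS-treated Ifnar1+/+ mice gave 36 genes that rose and 20 that fell (0.473 percent called). The 70 genes that rose after spermine had a median change of 0.34 there, and the erythroid list had 0.04. Because the 70 were chosen for their change after spermine, that median is no test of a difference. Over all genes only Ucp2 and 9530026F06Rik passed for that difference, so for the other called genes it was not shown after adjustment. For Trim10 it was 1.70 (adjusted p = 0.584), for Isg15 2.02 (adjusted p = 0.469) and for Apol11b 3.51 (adjusted p = 0.218).

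In PBS-treated mice labelled Ifnar1-/-, 680 genes rose and 55 fell between the days (6.21 percent called, 5.75 percent higher). Of the 70 genes that rose after spermine, 63 rose there too, which is 90.0 percent of the 70 and 9.3 percent of the 680. The erythroid list had a median of 2.10 with 21 of 24 rising, and Trim10, Isg15 and Apol11b rose by 2.31, 2.44 and 3.54 (adjusted p = 0.00291, 0.00138 and 0.00109). Tfrc rose there by 1.38 (adjusted p = 0.000782), and the difference from spermine was -1.30 (adjusted p = 0.208).

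No gene passed the test of the difference between the spermine and the labelled Ifnar1-/- changes (limma, 0.0 percent, 894 at an unadjusted p under 0.05, and 5 called by voom on recovered reads, 241 with arrayWeights and 54 without 7 libraries of low mitochondrial share). For Irf7 the labelled Ifnar1-/- change was 0.28 (adjusted p = 0.805) and the difference 1.63 (unadjusted p = 0.00730, adjusted p = 0.514). Platelet genes moved in those mice, with 12 of 15 rising and a median of 1.02, beside 5.75 percent of all genes rising. After spermine none of 15 rose, beside 0.592 percent of all genes. This contrast between the groups was tested per gene only, with no call.

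**Figure D4:**
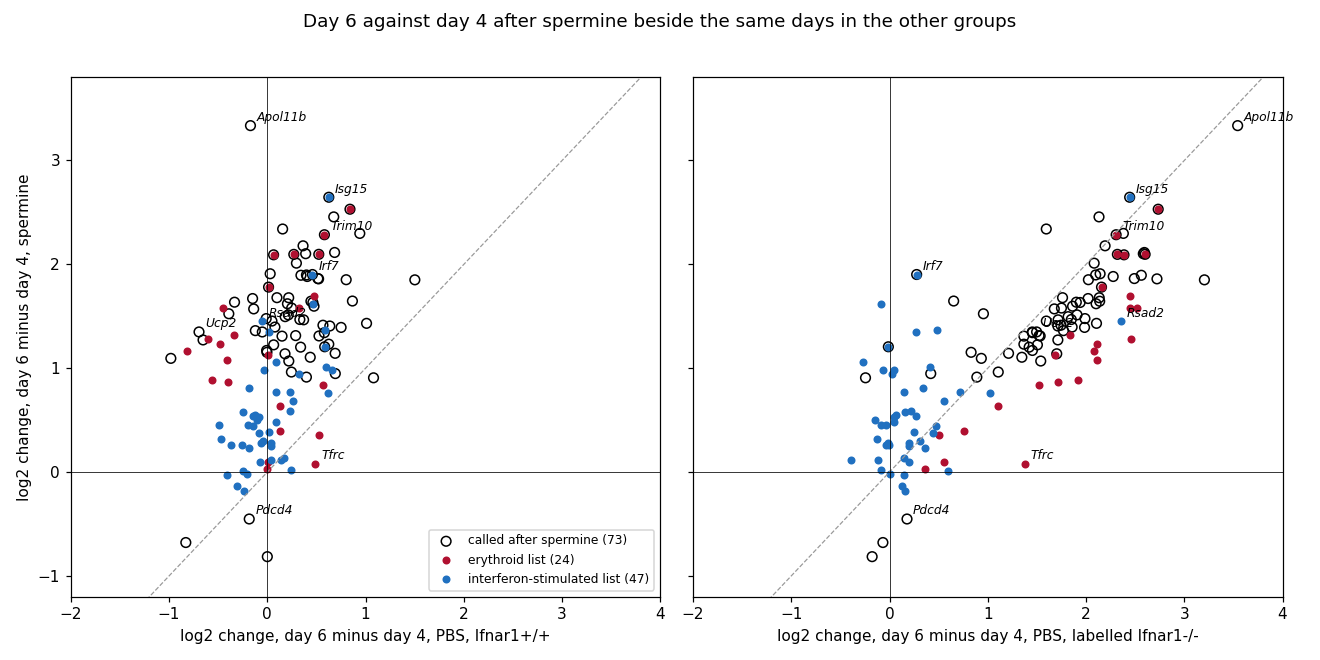
Log2 change from day 4 to day 6 after spermine (y) against the same change after PBS in Ifnar1+/+ mice (left) and in mice labelled Ifnar1-/- (right), for the 73 called genes (open circles), 24 erythroid genes (red) and 47 interferon-stimulated genes (blue); the dashed line marks equal change. The called genes were chosen by their value on y, so their place above the line on the left is no test, and on the right 63 of the 70 that rose after spermine also rose.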

How the data were processed

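Values were the authors' deposited FPKM per gene (54532 genes, 40 libraries), with 0 unmapped value columns. Per the submitters' processing notes, the tools named are HISAT2 2.0.5 and featureCounts 1.5.0-p3, beside CASAVA 1.8, fastp and DESeq2 1.20.0, and the build is GRCm38 (mm10). The settings of each, strand included, are not given in the sources used here. Whole reads could be recovered for 100 percent of nonzero FPKM (within 0.001 read). Size factors computed from these reads accounted for the scaling of each library with a constant of 1.0, which shows a scaling by size factors. Intervals of depth cover counting error only.

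Of the genes, 11829 reached 1 FPKM in 3 or more libraries and were tested. A joint limma 3.58.1 fit (R 4.3.3, eBayes with trend) of log2(FPKM + 1) over all 8 groups gave log2 changes, SEs and Benjamini-Hochberg adjusted p, which understates changes of low genes. The fit was tested on simulated data. Python 3.11.15, pandas 2.3.3, scipy 1.17.1 and matplotlib 3.10.9 were used for the rest. The replicates are separate mice by number, and nothing says how they were housed.

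The comparison, gene lists and alternatives were chosen with earlier results of these data known. Genes named were the 10 highest called genes and 10 lower ones at a mean of 5 FPKM or more. Predicted genes, sex-linked markers and segments of receptors or antibodies were left out. As only 3 genes fell, the lower ones were filled with uncalled genes of negative change and smallest p. Named too were the 3 smallest p of each list, those nearest the threshold for the differences, and a set list. Of 65 genes followed through the alternatives, 23 were chosen after their values were seen. Some genes are not reported here. Alternatives were fixed totals, pseudocount 0.1, other filters, arrayWeights, voom on recovered reads, fewer libraries and a replicate block, and, added after seeing the data, the length index and leaving out both mice numbered 2.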

Additional observations from a re-analysis of the deposited data

Results flagged for a closer look

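The values below were set apart from the other mice of their group of 6 by the gap to the nearest mouse, at a level that chance reaches in about 1 in 20 groups. Of 138 groups looked at, 38 were set apart, 23 of them at mouse 2. All are in FPKM unless said.

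On day 6, mouse 3 was highest for the red-cell genes Epb42 (25.0), Trim10 (188.1), Alas2 (13140), Hbb-bt (75420), Car2 (360.1), Rnf10 (511.3) and Bpgm (3558), for the autophagy genes Wipi1 (6.261) and Atg4a (33.22), and for Rsad2 (500.8). On day 4, mouse 3 was highest for Hbb-y (1.028), Irf7 (41.32) and Ifit1 (29.48).

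On day 6, mouse 2 was highest for the interferon-stimulated genes Irf7 (165.9), Oas1g (8.834), Bst2 (59.62) and Ifi27l2a (414.1). It was also highest for Hbb-y (8.434), 9530026F06Rik (8.277), Cox6a1 (300.8), Cox6b2 (41.72), Cox6c (32.29), Cox7b (44.54), Atp5l (16.27), Fis1 (228), Mcemp1 (71.39), Ly6c2 (99.91) and Pf4 (1005). On day 4, mouse 2 was highest for Ndufa1 (29.9), Cox6a1 (116.9), Cox7b (20.3), S100a8 (1563) and Pf4 (559.3). Its length index was 0.6648 on day 4 and 1.2468 on day 6, and the mitochondrial share of non-hemoglobin fragments was lowest in day 6 mouse 2 (1.1174 percent). The part of these library measures in the gene values was not tested beyond leaving out the mice and adding the length index.

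The remaining values were Ucp2 in day 4 mouse 6 (128.9, highest) and Ccr2 in day 6 mouse 1 (17.52, lowest).

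The change from day 4 to day 6 differed between spermine and PBS for Ucp2 by 2.044 and for 9530026F06Rik by 2.076 (log2, limma interaction, adjusted p = 0.00612 for each), with 6 mice in each of the 4 groups. For Ucp2 the difference lay between 1.64 and 2.21 over all alternatives.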

How the results depend on the processing

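Of the 65 genes followed through the alternatives, 35 were called. Of these 35, 11 were called in every alternative, 14 without both mice numbered 2 and 26 with the length index, and none changed sign. Mpp1 and Traj41, also called, were not among the 35. The count of 73 became 258 and 186 with fixed totals without and with hemoglobin, 143 with pseudocount 0.1, 36 with no filter, 145 at 5 FPKM, 808 with arrayWeights, 200 with voom, 233 without 7 libraries of low mitochondrial share, 34 without both mice numbered 2, 254 when only the groups compared were fitted, and 21 to 196 when a mouse was left out. The 2 genes differing from PBS became 12 and 28 with the fixed totals, 7 with arrayWeights, 6 with voom, 1 without the low mitochondrial libraries and 2 to 4 with a mouse left out. The 0 differing from labelled Ifnar1-/- mice became 5 with the fixed total with hemoglobin, 1 with pseudocount 0.1, 241 with arrayWeights, 5 with voom, 54 without the low mitochondrial libraries, 1 with the length index, 5 with only the groups compared, and 0 to 7 with a mouse left out. The cause of these shifts was not tested.

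The labels do not say whether the replicate numbers pair the mice, and the numbers were not treated as pairs. Same-numbered day 4 and day 6 mice correlated at 0.05 to 0.69, all 6 positive but mouse 6 at 0.05, and 2 of 6 correlated best with their own number. With the replicate number as a block, the pairing gave 778, 0 and 1 called genes for the 3 comparisons (71 of the 73 among the 778), and Ucp2 and 9530026F06Rik kept their differences of 2.044 and 2.076 without being called.

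Signs turned for genes near 0 that were not called: Ly6g (-0.065, fixed total with hemoglobin), Cd3e (-0.074 and -0.14, fixed totals without and with hemoglobin), Tfrc (-0.11 and -0.17, the same) and Jak1 (0.070, length index). Under the fixed totals without and with hemoglobin the median of all genes was itself -0.16 and -0.22. With a mouse left out, Odc1 ran from -0.18 to 0.020 and Tfrc from -0.0019 to 0.19. Depth limits genes near 1 FPKM, where 1 fragment of a 2 kb gene is 0.0189 to 0.0568 FPKM. The basophil and circadian clock lists had no gene left at 5 FPKM and gave no value there.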
